A study of Mus musculus with 4 samples.

Results

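Tubulin isotypes are the products of separate genes for alpha and beta tubulin, and 10 of these genes were described here across 4 libraries: Tuba1a, Tuba1b, Tuba1c, Tuba4a and Tuba8 for alpha tubulin, and Tubb2a, Tubb2b, Tubb3, Tubb4b and Tubb5 for beta tubulin. The genes were taken by symbol from the 48709 genes listed, whatever their values, and all 10 were found. RNA-seq had been performed on EGFP-positive cells and Tomato-positive cells purified by FACS from the trachea and from the stomach. All cells came from adult Tas2r143-reporter mice, which carry Tas2r143-CreERT2 together with the Cre reporter Rosa26 flox-mT-stop-flox-mG, on a C57BL/6 background, given tamoxifen on 5 days and analysed 5 days after the last injection, so both sorts share genotype and treatment. In these mice the promoter of the bitter taste receptor gene Tas2r143 drives a tamoxifen-dependent Cre, which switches a cell from the red membrane protein Tomato to EGFP, and the RNA-seq used mice of a single transgenic line. EGFP-positive cells are those in which Cre recombined the reporter, and Tomato-positive cells are the others. The Tomato-positive sort was restricted to EpCAM-positive cells, whereas no such gate is given for the EGFP-positive sort. Cells were pooled from 3 mice into 1 library for each sort and tissue, so there is no replicate spread, and intervals given below cover counting error only.

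An alpha and a beta tubulin form the heterodimer from which microtubules are built. The isotypes are nearly identical along most of their length and differ mainly in the acidic tail at the end of the protein, which reaches out from the microtubule and is where enzymes add glutamates or remove and restore the last tyrosine of alpha tubulin. Tuba1a, Tubb2b and Tubb3 are best known from neurons, Tubb4b from motile cilia, Tubb1 from platelets, and Tubb5, Tuba1b and Tuba1c from cells of many kinds. Tuft cells, the epithelial chemosensory cells that Trpm5 and Dclk1 mark, carry a tuft of stiff microvilli with bundles of actin and microtubules below it.

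The libraries held between 9979296 and 15433150 normalized counts, taken here to be reads per gene divided by a factor for each library. From the gaps between low values, the depth was estimated at 6198000 reads for EGFP-positive cells of the trachea and between 17338000 and 18913000 for the others, and 1 read was worth 1.61 normalized counts in the former and between 0.786 and 0.816 in the latter. A floor of 3 reads thus stood at 4.83 normalized counts in EGFP-positive cells of the trachea and between 2.36 and 2.45 elsewhere. Tissue was taken from the sample titles, although other label fields name the opposite tissue. The club cell gene Cyp2f2 was at 337775 normalized counts in Tomato-positive cells of the trachea and 69 in those of the stomach, and Pgc, which chief cells make, was at 2 and 992416. All 6 tuft cell markers examined (Dclk1, Trpm5, Pou2f3, Ptgs1, Avil and Gnat3) were at least 4-fold higher in EGFP-positive cells of both tissues, with sums of 71420 against 1873 normalized counts in the trachea and 93713 against 6064 in the stomach. EGFP-positive cells of the stomach also held RNA of B and plasma cells, with 725899 normalized counts over 6 markers such as Igkc and Jchain against 37174 in Tomato-positive cells. In the trachea these markers summed to 19334 and 1544 in the EGFP-positive and the Tomato-positive library. Jchain was at 5156 and 15 and Cd79b at 1386 and 1, while Cd79a and Mzb1 were listed at 0 in both. Ighm went the other way, at 2 and 580. Tomato-positive cells, although sorted for EpCAM, held marker RNA of fibroblasts, smooth muscle and myeloid cells. Fibroblast and smooth muscle markers summed to 26711 in the trachea and 24444 in the stomach, against 536 and 443 in EGFP-positive cells. Myeloid markers summed to 36005 and 8212, against 525 and 13, and a single marker gave most of the 36005. The part of such cells in the tubulin values was not tested.

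Tails of 3 isotypes are shown first, since the tail is where the modifying enzymes described further on act. The last 60 coding bases before the stop codon are given 5′ to 3′ on the coding strand, from the mouse GENCODE M21 transcripts (GRCm38), for Tuba4a and for the leading beta genes Tubb4b and Tubb5, with in-frame glutamate codons (GAA and GAG) in capitals.
Tuba4a: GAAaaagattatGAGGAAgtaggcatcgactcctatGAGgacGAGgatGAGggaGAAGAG
Tubb4b: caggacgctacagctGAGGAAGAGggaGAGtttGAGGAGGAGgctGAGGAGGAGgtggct
Tubb5: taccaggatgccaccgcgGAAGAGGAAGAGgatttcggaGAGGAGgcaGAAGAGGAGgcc
These tails hold 8, 10 and 9 glutamate codons. Tuba4a ends with a glutamate codon (GAG) and has no tyrosine codon in that place. The tails of Tubb2a and Tubb2b differ at 3 of 60 bases.

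Tuba1a (chr15:98949837-98953703, minus strand), Tuba1b (chr15:98931425-98934565, minus strand) and Tuba1c (chr15:99029891-99038110, plus strand) lie side by side, as do Tubb2a (chr13:34074274-34078007) and Tubb2b (chr13:34126748-34130466), both on the minus strand. The other members are spread over the genome, Tuba4a at chr1:75214228-75219865, Tuba8 at chr6:121210696-121226854, Tubb3 at chr8:123411424-123422015, Tubb4b at chr2:25222160-25224702 and Tubb5 at chr17:35833921-35838306. Across their coding sequences Tuba1a and Tuba1b are 98.3% identical, Tuba1a and Tuba1c 97.1%, and Tubb2a and Tubb2b 96.5%, whereas Tuba1a and Tuba4a are 84.8% and Tubb4b and Tubb5 82.2% identical. Since the authors left out reads that aligned to several places, similarity lowers the counts of some members. Of all stretches of 75 bases, the read length, only 29.6% of those in the Tuba1a transcript, 21.7% in Tuba1b and 43.3% in Tuba1c occur in no transcript of another gene, against 59.1% in Tubb4b and 100% in Tubb5 and Tubb3. Within the coding sequence alone the share falls to 12.7% for Tuba1a and 6.18% for Tuba1b. Tuba4a has unique coding sequence throughout but shares 47.2% of the stretches of its transcript with transcripts of Stk16. Pseudogenes that share such stretches (Gm17383, Gm14150, Tubb4b-ps1 and Tubb4b-ps2) were each between 0 and 15 normalized counts in the 4 libraries. Reads from the shared stretches were left out for pseudogenes too, so these low values do not show how far they were transcribed. Levels compared between genes below are therefore given per kilobase of transcript and also per kilobase of unique stretches, while ratios of a gene to itself between libraries need no length.

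**Figure D1:**
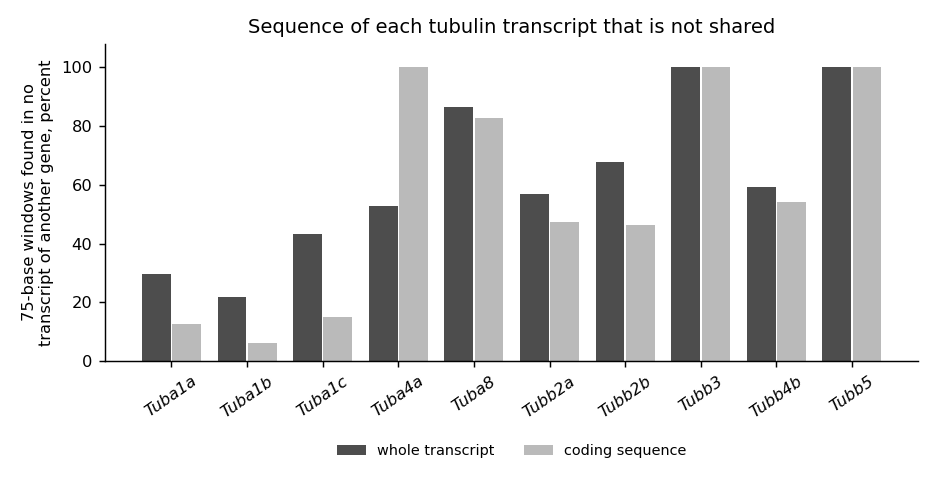
Percentage of 75-base windows that occur in no transcript of another gene, for the principal transcript of each tubulin gene (dark bars) and for its coding sequence (light bars). Tuba1a, Tuba1b and Tuba1c have the least unique sequence, at 29.6%, 21.7% and 43.3% of the transcript, and Tubb3 and Tubb5 are unique throughout.

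EGFP-positive cells of both tissues had Tuba1a as their leading tubulin gene, and Tomato-positive cells had Tubb5 per kilobase of transcript. Per kilobase of transcript, Tuba1a made up 52.3% of the 10 genes in EGFP-positive cells of the trachea and 51.6% in those of the stomach, but 10.2% and 8.78% in the Tomato-positive cells of these tissues. Tubb5 held 41.7% in Tomato-positive cells of the trachea and 59.0% in those of the stomach, and 14.4% and 17.7% in the corresponding EGFP-positive cells. The shares of Tuba1a thus lay close together within a sort and far apart between sorts. In such pools of cells, more cells of a type and more RNA per cell cannot be told apart. Without any length correction Tuba1a held 49.1% (95% exact binomial interval 48.0 to 50.1) in EGFP-positive and 8.62% (8.28 to 8.97) in Tomato-positive cells of the trachea, and 47.1% (46.7 to 47.6) and 6.81% (6.49 to 7.13) in the stomach. Per kilobase of unique stretches the share rose to 69.1% and 69.4% in EGFP-positive cells of trachea and stomach, and to 19.7% and 19.1% in Tomato-positive cells.

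Tubb4b was the most even of the abundant isotypes, with 20.7% and 31.1% of the 10 genes per kilobase in the EGFP-positive and the Tomato-positive cells of the trachea and 19.0% and 15.4% in the stomach. Tuba1c, a widely expressed alpha isotype, made up 2.30% and 8.71% in the trachea and 4.45% and 7.40% in the stomach, lower in EGFP-positive cells of both. The share of Tuba4a, the alpha isotype without the tyrosine codon, stayed between 2.77% and 5.14% in all libraries. Among the alpha genes alone Tuba1a accounted for 86.1% and 82.6% per kilobase in EGFP-positive cells of trachea and stomach, and for 39.4% and 37.7% in Tomato-positive cells, where Tuba1c held 33.6% and 31.8%. Within the beta genes Tubb4b led in EGFP-positive cells, with 52.8% in the trachea and 50.5% in the stomach, while Tubb5 led in Tomato-positive cells, with 56.3% and 76.9%. This order rests on the length used. Without length Tubb5 came before Tubb4b in EGFP-positive cells too, with 19.8% against 17.2% of the 10 genes in the trachea and 23.7% against 15.4% in the stomach, and per kilobase of unique stretches Tubb4b led the beta genes in Tomato-positive cells of the trachea, with 54.9% against 42.8%.

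**Figure D2:**
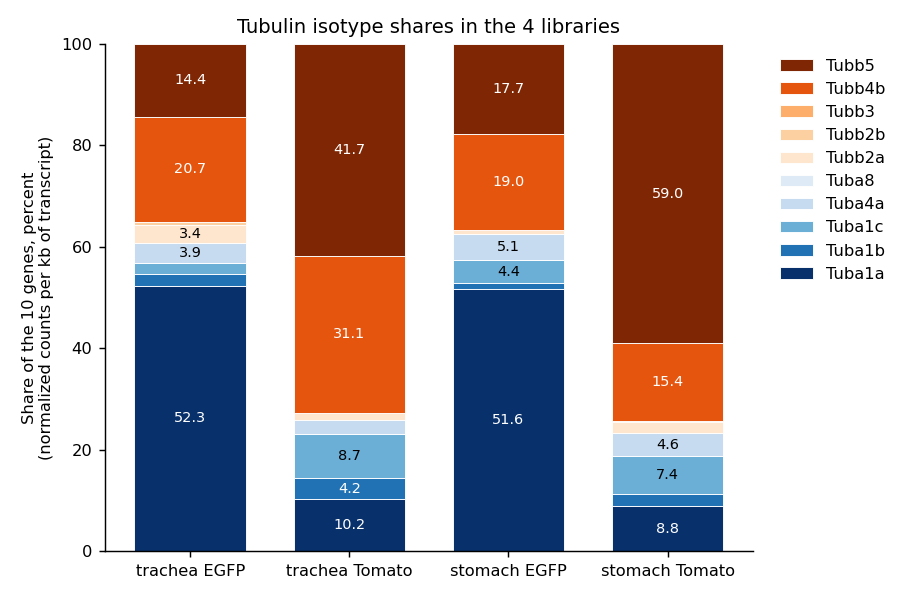
Share of each of the 10 tubulin genes in their summed level, in percent of normalized counts per kilobase of transcript, with 1 stacked bar per library (blue, alpha genes; orange and brown, beta genes; shares above 3% are written in). Tuba1a takes 52.3% and 51.6% of the bars for EGFP-positive cells and Tubb5 41.7% and 59.0% of those for Tomato-positive cells.

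Ordered by level per kilobase, EGFP-positive cells of the trachea showed Tuba1a, Tubb4b, Tubb5, Tuba4a, Tubb2a, Tuba1c, Tuba1b and Tubb2b. Neighbours in this order differed beyond counting error except for Tuba4a and Tubb2a, with a ratio of 1.15 (0.991 to 1.35), and for Tuba1c and Tuba1b, with 1.04 (0.846 to 1.28). In EGFP-positive cells of the stomach the first 4 genes stood in the same order, and Tubb4b exceeded Tubb5 by a ratio of only 1.07 (1.04 to 1.11). Both Tomato-positive libraries began with Tubb5, Tubb4b, Tuba1a and Tuba1c, and Tubb5 exceeded Tubb4b by 1.34 (1.30 to 1.38) in the trachea and by 3.82 (3.66 to 3.98) in the stomach. Per kilobase of unique stretches Tuba1a remained first in EGFP-positive cells of both tissues, but Tubb4b came before Tubb5 in Tomato-positive cells of the trachea, with 30.2% against 23.5% of the 10 genes, and Tuba1a before Tubb4b in those of the stomach, with 19.1% against 16.9%.

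The 10 genes together accounted for 0.142% of all normalized counts in EGFP-positive cells of the trachea and 0.143% in Tomato-positive cells, and for 0.233% and 0.126% in the stomach. The summed alpha level exceeded the summed beta level in EGFP-positive cells, with alpha to beta ratios per kilobase of 1.55 in the trachea and 1.66 in the stomach, against 0.350 and 0.303 in Tomato-positive cells. Per kilobase of unique stretches the ratios were 3.54 and 3.90 in EGFP-positive and 0.822 and 0.756 in Tomato-positive cells, so the ratio itself depends on the length used, while it stayed above 1 in EGFP-positive and below 1 in Tomato-positive cells. The normalized count of Tuba1a over that of Tubb5, in which the scale of a library cancels, was 2.48 (2.34 to 2.62) and 0.166 (0.159 to 0.174) in the EGFP-positive and the Tomato-positive cells of the trachea. In the stomach it was 1.99 (1.94 to 2.03) and 0.101 (0.0962 to 0.107). The ratio was thus 14.9 times as high in EGFP-positive as in Tomato-positive cells of the trachea and 19.6 times as high in the stomach.

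**Figure D3:**
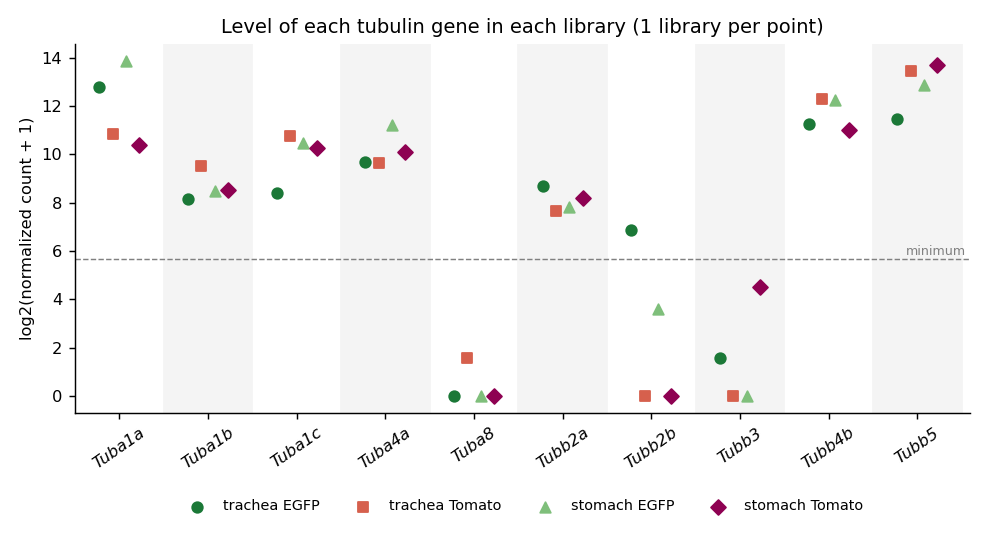
Level of each tubulin gene in each library as log2(normalized count + 1), with 1 point per library and no replicates (circles, trachea EGFP; squares, trachea Tomato; triangles, stomach EGFP; diamonds, stomach Tomato; dashed line, the minimum of 50). Tuba1a lies higher in both EGFP-positive libraries than in both Tomato-positive libraries, Tubb5 lies lower, and Tuba8 and Tubb3 stay under the minimum in all libraries.

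The relative expression of a gene was its log2(EGFP/Tomato), with 1 added to each normalized count, and a gene was called from 4-fold on if it reached 50 normalized counts in the higher library. In the trachea 8 of the 10 genes reached this minimum, of which 1 was called higher in EGFP-positive cells, 1 was called lower and 6 were not called. Over all 10523 genes tested there, 25.2% were called higher and 32.4% lower, so calls were common in this pair of libraries. The median of the 8 genes was -0.48, against -0.32 for all genes tested. In the stomach 7 genes reached the minimum, of which 1 was called higher and 0 lower, against 14.8% and 22.4% of 11094 genes. Their median was 0.21, against -0.15 for all genes. Scaling all libraries to the same total shifts log2(EGFP/Tomato) by 0.58 in the trachea and by 0.18 in the stomach for genes well above the pseudocount, with other shifts for genes near 0, and values on this scale are given where they matter.

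Tuba1a was at 6967 and 1838 normalized counts in the EGFP-positive and the Tomato-positive cells of the trachea and at 15001 and 1326 in those of the stomach. Both EGFP-positive libraries were above both Tomato-positive libraries. The ratio was 3.79 (3.60 to 3.99) in the trachea, a log2(EGFP/Tomato) of 1.92 that was just short of a call and that rose to 2.50 at the same total. In the stomach it was 11.3 (10.8 to 11.9), with a log2(EGFP/Tomato) of 3.50. The part of B and plasma cell RNA in this value was not tested, nor was it in the trachea.

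Tubb5 showed the opposite order, with 2811 and 11061 normalized counts in the EGFP-positive and the Tomato-positive cells of the trachea and 7556 and 13093 in those of the stomach. Its log2(EGFP/Tomato) was -1.98 in the trachea, again just short of a call, and -0.79 in the stomach. At the same total the values were -1.40 and -0.61. Both EGFP-positive libraries were thus below both Tomato-positive libraries, by more in the trachea. Markers of dividing cells (Mki67, Top2a, Ccnb2, Cdk1, Birc5 and Ube2c) summed to 0 and 2965 normalized counts in the EGFP-positive and the Tomato-positive cells of the trachea and to 576 and 5074 in the stomach. Most of the 576 came from Top2a, which was at 471 and 1194 in the stomach and was not called there. The part of dividing cells in the levels of Tubb5, Tuba1b and Tuba1c was not tested.

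Tuba1c was at 337 and 1727 normalized counts in the EGFP-positive and the Tomato-positive cells of the trachea and was called lower, with a ratio of Tomato to EGFP of 5.12 (4.45 to 5.95) and a log2(EGFP/Tomato) of -2.35. At the same total its value was -1.78, short of a call. In the stomach it was at 1421 and 1228, with a log2(EGFP/Tomato) of 0.21. Tuba1b, which differs least from Tuba1a in sequence, was at 285 and 735 in the trachea, with a log2(EGFP/Tomato) of -1.36, and at 359 and 369 in the stomach, where its value of -0.04 turned to 0.14 at the same total. In the trachea both genes were thus lower in EGFP-positive cells, where Tuba1a was higher.

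Tuba4a was at 826 and 787 normalized counts in the EGFP-positive and the Tomato-positive cells of the trachea and at 2355 and 1085 in those of the stomach, a ratio of 1.05 (0.941 to 1.17) and of 2.17 (2.03 to 2.32). Tubb4b was at 2443 and 4971 in the trachea and at 4888 and 2068 in the stomach, so the higher library was the Tomato-positive one in the trachea and the EGFP-positive one in the stomach. Its log2(EGFP/Tomato) was -1.02 and 1.24, not called in either tissue. Of 11 ciliated cell markers listed, 9 were at 0 in EGFP-positive and 4 in Tomato-positive cells of the trachea, with sums of 1040 and 3105. A single marker, at 927 and 422, gave most of the former sum. Most of the latter came from the dynein gene Dnah5 at 1906, while the cilia regulator Foxj1 was at 0 and 1. In the stomach these markers summed to 106 and 27, with that single marker at 105 and 0, and the part of ciliated cells in the values of Tubb4b was not tested.

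Tubb2a was at 406 and 201 normalized counts in the EGFP-positive and the Tomato-positive cells of the trachea and at 226 and 289 in those of the stomach, with a log2(EGFP/Tomato) of 1.01 and -0.35. Tubb2b, its neighbour on the chromosome, was called higher in the trachea, with 116 normalized counts in EGFP-positive cells, about 72 reads, while it was listed at 0 in Tomato-positive cells. In the stomach Tubb2b was at 11 in EGFP-positive cells, under the minimum, and was listed at 0 in the Tomato-positive library. No fold is given for Tubb2b in either tissue, since the Tomato-positive libraries were at 0, below their floors of 2.43 and 2.45. The neuronal isotype Tubb3 was at 2, 0, 0 and 22 in the EGFP-positive and the Tomato-positive cells of the trachea and of the stomach, and Tuba8 at 0, 2, 0 and 0, so that neither reached the minimum in any library. Apart from the 22 of Tubb3, these values were under the floor, where absence cannot be told from a low level.

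Tubb3 was above its floor only in Tomato-positive cells of the stomach, where markers of endocrine cells and nerves were also highest. Of the neuroendocrine markers, Chga was at 88713 normalized counts there, Resp18 at 3139, Snap25 at 1496, Syp at 180 and Calca at 75, and all of these were at 0 in the EGFP-positive stomach library. In the trachea Chga and Resp18 were at 0 in both libraries, while Snap25 and Calca were at 362 and 287 in Tomato-positive cells and at 0 in EGFP-positive cells. Nerve markers summed to 212 in this library, with Elavl4 at 91 and Nefm at 84, and to 150, 1 and 0 in the EGFP-positive and the Tomato-positive cells of the trachea and EGFP-positive cells of the stomach, the 150 being Nefl alone. What part such cells had in the 22 normalized counts of Tubb3 was not tested.

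**Figure D4:**
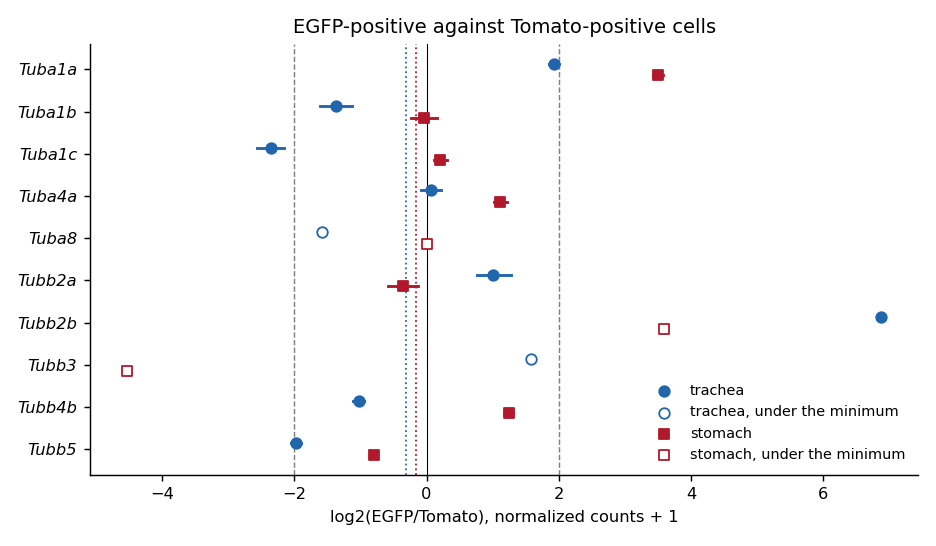
log2(EGFP/Tomato) of each tubulin gene in the trachea (blue circles) and the stomach (red squares), with 95% counting intervals where both libraries were above 0; open symbols are under the minimum, dashed lines mark 4-fold and dotted lines the medians of all genes tested. Tuba1a lies at 1.92 and 3.50, Tubb5 at -1.98 and -0.79, and Tuba1c, Tubb2a and Tubb4b lie on different sides of 0 in the 2 tissues.

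The tissues were also compared within each sort, and these comparisons use the same libraries as those between sorts. In EGFP-positive cells 8 genes reached the minimum, of which 1, Tubb2b, was called higher in the trachea and 1, Tuba1c, lower, against 19.8% higher and 28.3% lower among 10337 genes. The ratio of trachea to stomach was 10.5 (5.89 to 20.2) for Tubb2b, and for Tuba1c the stomach exceeded the trachea by 4.22 (3.66 to 4.90). At the same total the log2(trachea/stomach) of Tuba1c was -1.62, short of a call, so that 0 members were then lower in the trachea. Tuba1a, Tuba4a and Tubb5 were lower in the trachea, with log2(trachea/stomach) of -1.11, -1.51 and -1.43, which became -0.66, -1.06 and -0.98 at the same total. Tubb4b was lower there as well, with a ratio of stomach to trachea of 2.001 (1.89 to 2.12). In Tomato-positive cells 0 of 7 genes were called in either direction, against 20.3% higher and 27.9% lower among 11338 genes. The widest gap there was that of Tubb4b, higher in the trachea by 2.404 (2.30 to 2.52), followed by Tuba1b with 1.99 (1.78 to 2.24). Tuba1a and Tubb5 differed less between the tissues in Tomato-positive cells, with ratios of trachea to stomach of 1.39 (1.30 to 1.48) and 0.845 (0.826 to 0.864).

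Over both tissues, limma with a tissue term was fitted across genes on log2(normalized count + 1), using all 4 libraries. The fit had 1 residual degree of freedom, with the tissues standing in for replicates. Its SE was set by the spread of other genes of similar level rather than by the gene's own values. The SE and adjusted p thus do not measure how well the tissues agree for a gene. For Tuba1a the log2(EGFP/Tomato) differed by 1.58 between the tissues. Of 13023 genes, 304, or 2.33%, had an adjusted p of at most 0.05 (Benjamini-Hochberg) for the difference between sorts, and 8 members were among the genes fitted. Tuba1a was the only member called, with a mean log2(EGFP/Tomato) of 2.71 (SE 0.71, limma adjusted p = 0.00898), and it was higher in EGFP-positive cells of 2 of 2 tissues. This call was lost without the minimum on low values (adjusted p = 0.793) and without the tissue term (adjusted p = 0.708). Tubb5 had a mean log2(EGFP/Tomato) of -1.38 (SE 0.60, limma adjusted p = 0.307), and the other 6 members had limma adjusted p of 0.796 or more. For the difference between tissues 227 genes, or 1.74%, had an adjusted p of at most 0.05, with 0 members among them and a lowest limma adjusted p of 0.775. At an unadjusted p under 0.05 there were 2 members for sort and 0 for tissue.

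Further tubulin genes were low or patchy. Tubb1, the platelet isotype, stood at 293 normalized counts in the EGFP-positive trachea library and at 0, 2 and 0 in the other libraries, and Tubb4a at 250 and 144 in the EGFP-positive and the Tomato-positive cells of the stomach, against 2 and 0 in the trachea. Tubb6 was at 372 and 579 in the EGFP-positive and the Tomato-positive cells of the trachea and at 25 and 1391 in those of the stomach, where it was called lower with a log2(EGFP/Tomato) of -5.74. The gamma tubulin gene Tubg1, whose product nucleates microtubules, was at 462 and 117 in the trachea and 196 and 87 in the stomach, higher in EGFP-positive cells of both but not called. Its paralog Tubg2 was at 461 and 0 in the trachea and at 42 and 21 in the stomach, and the delta tubulin gene Tubd1 was at 708 and 0 and at 128 and 17, called higher in both tissues. Of these 10 further genes 3 of 5 that reached the minimum were called higher in the trachea, against 25.2% of all genes, and 1 of 4 was called higher and 1 lower in the stomach, against 14.8% and 22.4%. Tuba3a, Tuba3b and Tubal3 were at 0 in all libraries.

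Genes for the folding of tubulin differed little between the sorts. This list holds the chaperonin subunits, prefoldins and tubulin cofactors, and of its 23 genes 20 reached the minimum in the trachea and 22 in the stomach. Called were 1 higher and 0 lower in the trachea and 0 in either direction in the stomach, against 25.2% and 32.4% and 14.8% and 22.4% of all genes, and the medians of 0.11 and 0.07 lay near those of all genes. The exception was Tbcd, a cofactor that handles beta tubulin, at 1309 and 154 normalized counts in the EGFP-positive and the Tomato-positive cells of the trachea and at 148 and 305 in the stomach. Just short of a call in the trachea were Pfdn4, Pfdn2 and Pfdn6, with log2(EGFP/Tomato) of 1.97, 1.90 and -1.84. Most of these genes were well expressed, the chaperonin gene Cct7 for example being at 3161, 2931, 3774 and 3197 in the EGFP-positive and the Tomato-positive cells of the trachea and then of the stomach.

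Of 28 genes for enzymes that modify tubulin and their partners, 16 reached the minimum in each tissue, with 4 called higher and 4 lower in the trachea and 5 higher and 2 lower in the stomach. Over all genes 25.2% and 32.4% were called in the trachea and 14.8% and 22.4% in the stomach, so the count of higher genes in the trachea was at the background. Ttl, the ligase that restores the terminal tyrosine, was called lower in both tissues, with 0 and 125 normalized counts in the EGFP-positive and the Tomato-positive cells of the trachea and 2 and 84 in those of the stomach. Svbp, the partner of the vasohibins that remove this tyrosine, was called in opposite directions, with 319 and 3680 in the trachea and 5562 and 501 in the stomach. Vash2, a vasohibin, was at 274 and 7 in the stomach and at 0 in both libraries of the trachea. Among the glutamate and glycine ligases, Ttll3 was at 0 and 510 in the trachea and at 52 and 0 in the stomach, Ttll5 at 998 and 5 and at 17 and 55, and Ttll11 at 167 and 0 and at 21 and 1. Agbl1, a carboxypeptidase that removes glutamates, was at 153 and 0 in the trachea and at 1 in both libraries of the stomach, and Ttll13 was at 76 in Tomato-positive cells of the stomach alone. Many of these calls set a library against one at or near 0.

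Of 32 genes for proteins that bind microtubules, 16 were called higher and 9 lower in the trachea, against 25.2% and 32.4% of all genes, and of 32 in the stomach 6 were called higher and 9 lower, against 14.8% and 22.4%. Dclk1, a kinase with a microtubule-binding domain and one of the tuft cell markers above, was at 6888 and 86 normalized counts in the EGFP-positive and the Tomato-positive cells of the trachea and at 33844 and 2049 in those of the stomach. Map1a was at 262 and 484 in EGFP-positive cells of trachea and stomach and at 0 in both Tomato-positive libraries. In contrast Stmn2, a tubulin-binding protein best known from neurons, was at 376 and 105 in Tomato-positive cells and at 0 in EGFP-positive cells of both tissues, and Katnal1, related to the severing enzyme katanin, was called lower in both, with 0 and 53 in the trachea and 7 and 71 in the stomach. Map1b, Mtus1, Tppp3 and Eml4 were called in opposite directions in the 2 tissues. Map1b was at 1905 and 28 in the trachea and at 57 and 2256 in the stomach, Eml4 at 130 and 3 and at 49 and 225, Mtus1 at 6 and 1671 and at 861 and 144, and Tppp3 at 1736 and 7853 and at 3675 and 815. Eml2 was at 971 in EGFP-positive cells of the trachea and at 0, 0 and 1 elsewhere, and Mtus2 and Stmn3 were at 247 and 60 in Tomato-positive cells of the stomach alone.

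A further list held genes of the gamma tubulin ring complex, from which microtubules start, and of associated proteins such as Akap9 and Pcnt. In the trachea 10 of its genes reached the minimum, with 5 called higher and 4 lower, against 25.2% and 32.4% of all genes. In the stomach 10 did, with 0 called higher and 2 lower, against 14.8% and 22.4%. Tubg1 and Tubg2, given above, were counted in this list too, and Tubg2 was among the 5. Tubgcp3 was called lower in both tissues, with 16 and 73 normalized counts in the EGFP-positive and the Tomato-positive cells of the trachea and 68 and 857 in those of the stomach. Mzt2 was at 237 and 1 in the trachea and at 93 and 304 in the stomach, Tubgcp6 at 89 and 0 and at 0 and 28, and Nedd1 at 0 and 73 and at 116 and 138. In the trachea several of these calls thus set a library against one at or near 0. Mzt1 was at 306 and 4219 in the trachea, where it was called lower, and at 674 and 411 in the stomach. Pcnt, a centrosomal scaffold, was called lower in the stomach, with 33 and 229.

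**Figure D5:**
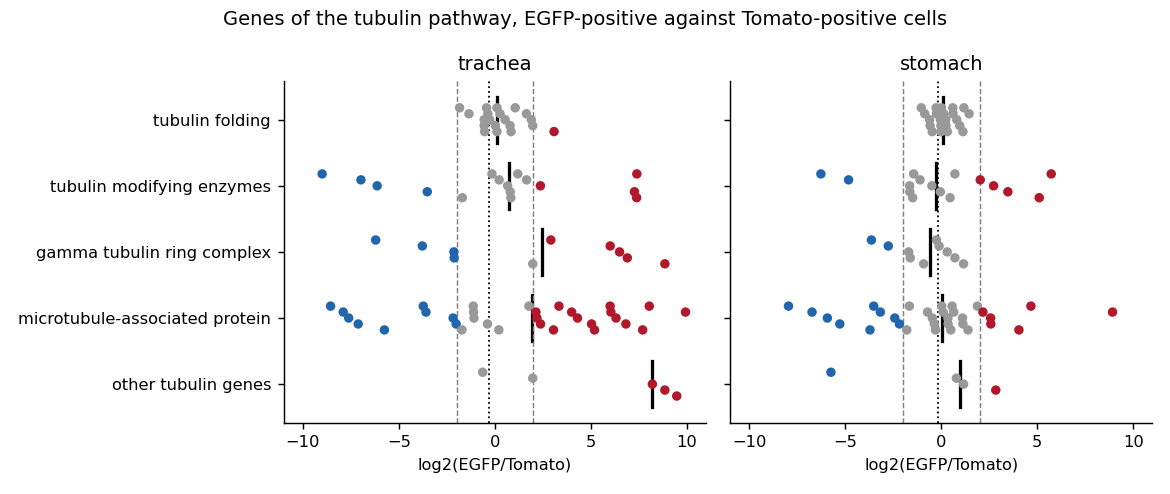
log2(EGFP/Tomato) of the genes of 5 tubulin-related lists that reached 50 normalized counts, in the trachea (left) and the stomach (right), with 1 point per gene (red, called higher; blue, called lower; grey, not called), black bars for list medians and dotted lines for the medians of all genes tested. The folding genes stay between the 4-fold lines except for Tbcd in the trachea, while genes of the other lists lie far out on both sides.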

How the data were processed

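The authors trimmed reads, aligned them to GRCm38 with STAR 2.4.0a and counted them per gene with featureCounts 1.4.5-p1, so that a read touching more than a single gene or aligning to more than a single place was not counted. The deposited values are normalized counts, treated as a score: whole numbers, each taken from the spacing of low values to be a read count that was scaled within its library by the authors and rounded. The sources used here do not say how the factors were set. The worth of 1 read was estimated from the values 3 to 60, and exact binomial intervals (95%, scipy 1.17.1) were computed on the estimated reads. Depths, floors and intervals rest on this inference. Since values were rounded, no count model was run. Where a symbol stood on several lines (116 symbols), the one with the highest sum was kept.

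Samples were grouped by title. Calls used a pseudocount of 1, a minimum of 50 and a threshold of 2 on the log2 scale. limma 3.58.1 (R 4.3.3, eBayes with trend) was fitted across all genes that reached 50 in any library, and scripts were tested on simulated data. Lengths, unique windows and coding tails came from GENCODE M21 principal transcripts. No table of protein sequences was used here. The members and lists were chosen with earlier results of these data known. Named genes were the 10 members, further tubulin genes at 50 or more, from each other list up to 4 genes with the largest difference past the threshold in each tissue and any gene past it in both, and the leading markers of cells known to use a listed isotype. Cct7 was chosen after its values were seen, as an example of the level of the folding genes. Pfdn2, Pfdn4 and Pfdn6 were also named after their values were seen, as the folding genes nearest to a call in the trachea. Akap9 and Mzt1 lie outside this rule as well and were named with their values known. A marker gene and some coding tails are not reported here.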

Additional observations from a re-analysis of the deposited data

Results flagged for a closer look

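The RNAs of Tuba1c, Tubb4b and Tubb2a differed between the sorts in opposite directions in the tissues, beyond counting error in each, and the difference between the tissues was not tested since each rests on single libraries. The log2(EGFP/Tomato) of Tuba1c was -2.35 in the trachea and 0.21 in the stomach. That of Tubb4b was -1.02 in the trachea and 1.24 in the stomach, and that of Tubb2a was 1.01 and -0.35. With all libraries at the same total, the directions were kept, with -1.78 and 0.39 for Tuba1c, -0.45 and 1.42 for Tubb4b, and 1.58 and -0.17 for Tubb2a, but the ratio of Tubb2a in the stomach then had a counting interval of 0.757 to 1.04, which includes 1.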

How the results depend on the processing

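There was 1 library per group, so no replicate could be left out, and the only pairing of the sorts was by tissue, as the tissue term in limma. The share of Tuba1a among the 10 genes was 49.1%, 8.62%, 47.1% and 6.81% without length in EGFP-positive and Tomato-positive cells of trachea and then stomach, 57.6%, 12.4%, 57.3% and 10.7% per kilobase of all exons, and 69.1%, 19.7%, 69.4% and 19.1% per kilobase of unique windows. Over all alpha and beta tubulin genes it was 49.5% in EGFP-positive cells of the trachea and 7.97% in Tomato-positive cells of the stomach. In the same order, the alpha to beta ratio was 1.46, 0.314, 1.51 and 0.259 without length, 1.89, 0.408, 2.05 and 0.344 per kilobase of all exons, and 3.54, 0.822, 3.90 and 0.756 per kilobase of unique windows. The settings by exons and by unique windows were chosen after seeing the data, the latter in place of a planned check across the genome that was not run.

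Counts of members called changed with the scale and the threshold. For EGFP against Tomato in the trachea, 2 were higher and 0 lower at the same total, 0 higher at a minimum of 500, and 3 higher and 4 lower from 2-fold on. In the stomach, 2 were higher and 1 lower without a minimum, and 3 were higher from 2-fold on. For trachea against stomach in EGFP-positive cells, 0 were lower at the same total, 0 higher at a minimum of 500 and 5 lower from 2-fold on. In Tomato-positive cells, 1 was lower without a minimum and 1 higher from 2-fold on. In limma, genes with an adjusted p of at most 0.05 fell from 304 to 193 for sort and from 227 to 131 for tissue at a minimum of 500, where 6533 genes were fitted. They fell to 0 for both without a minimum (819 and 771 at an unadjusted p under 0.05) and to 0 for both without the block for the other factor (776 and 736), and the cause was not tested. The mean log2(EGFP/Tomato) of Tuba1a was between 2.70 and 3.09 over the limma alternatives, with adjusted p between 0.000479 and 0.793. Of the members called, 0 changed sign, while the uncalled Tuba1b went from -0.04 to 0.14 in the stomach and from -0.33 to 0.12 between tissues in EGFP-positive cells at the same total. The order of Tubb4b and Tubb5 turned in EGFP-positive cells without length and in Tomato-positive cells of the trachea per kilobase of unique windows. Depth was lowest in EGFP-positive cells of the trachea, where Tubb2b and Tubb3 rested on 72 and 1 reads.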
